A study of Mus musculus with 16 samples.

Results

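The genes described here are 10 members of the amino acid starvation response that the transcription factor ATF4 directs: *Atf4*, *Ddit3*, *Trib3*, *Chac1*, *Sesn2*, *Asns*, *Psat1*, *Phgdh*, *Shmt2*, and *Slc7a11*. They were chosen by name as known genes of the response, with earlier results of these data known. All 10 were present among the 24421 genes of the count table. The cells were CD11b+ brain cells, which are mainly microglia, isolated with magnetic beads from female C57BL/6J mice. After weaning, the mice were kept for 1 month on standard chow (CON, n = 4) or on an isocaloric diet low in protein and fat (MAL, n = 5). A further group had that same diet for the same time, with oral exposure to a mixture of E. coli and Bacteroidales species (MAL-BG, n = 7). Per the paper, the bacteria were given in a short series of gavages within that time, and the other mice received PBS gavages. Mice were caged in groups, and which mice shared a cage is not given in the sources used here. There was no group given bacteria on standard chow, so MAL-BG differs from MAL by the bacteria and from CON by both diet and bacteria.

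When a cell lacks an amino acid, uncharged tRNA activates the kinase GCN2, which phosphorylates the translation factor eIF2α. Protein synthesis then slows while translation of the *Atf4* mRNA increases, so that ATF4 protein can rise with little change in its mRNA. ATF4 pairs with C/EBP proteins at C/EBP-ATF response elements and turns on genes that make amino acids, import them, and damp the response, and other kinases reach the same factor from unfolded proteins, viral RNA, or lack of heme. The question that the comparisons put to these genes is whether a diet low in protein, alone or with bacterial exposure, came with a change in their mRNA in CD11b+ cells.

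The promoters of the members are shown first because the response is read out through a short sequence. The letters TGATGNAA, the core of the C/EBP-ATF response element, were searched on both strands from 250 bases before to 50 bases after the start site of each gene (RefSeq, GRCm38.p6). They were found for 4 of 10 members (*Asns*, *Chac1*, *Slc7a11*, and *Trib3*), and in 3.97% of all 32851 promoter windows of that length. The form TGATGCAA was found for 2 members, *Chac1* and *Slc7a11*, and in 0.89% of windows. For *Atf4*, *Ddit3*, *Sesn2*, *Psat1*, *Phgdh*, and *Shmt2*, these letters are not in this window. The matches and their flanks follow on the strand of the gene, with the matched letters in capitals (a match on the other strand is shown as its reverse complement).
Asns (chr6:7693214-7693243, minus strand): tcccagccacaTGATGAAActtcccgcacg
Chac1 (chr2:119351019-119351086, plus strand): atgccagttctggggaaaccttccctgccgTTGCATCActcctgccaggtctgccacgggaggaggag
Slc7a11 (chr3:50443623-50443709, minus strand): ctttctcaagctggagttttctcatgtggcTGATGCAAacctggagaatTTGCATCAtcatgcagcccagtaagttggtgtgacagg
Trib3 (chr2:152344028-152344057, minus strand): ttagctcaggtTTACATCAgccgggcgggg
The *Slc7a11* window holds 2 matches in opposite orientation, at positions -66 to -59 and -47 to -40 before the start site, and the *Chac1* match lies at -193 to -186. The *Asns* match lies at -23 to -16 and the *Trib3* match just past the start site, at 15 to 22. The *Slc7a11* window (chr3:50443564-50443863) lies inside the RefSeq locus of that gene, which reaches farther upstream, and its upstream end was not searched. A match describes the letters only, and no binding was measured here.

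Library totals were 10312703 to 13461574 counts in CON, 10864121 to 12819982 in MAL, and 14191791 to 18705202 in MAL-BG. All 10 microglial markers were detected, and their summed level was 16800 to 27500 CPM (counts scaled to the library size) in CON, 17500 to 29800 in MAL, and 36800 to 50300 in MAL-BG. Markers of other cells were also present: the summed level of 10 choroid plexus markers was 13900 to 54000 CPM in CON, 6460 to 42500 in MAL, and 1770 to 16500 in MAL-BG, and that of 10 astrocyte markers was 338 to 743, 396 to 699, and 198 to 428 CPM. Choroid plexus (10 of 10), neuron (9 of 10), ependyma (9 of 10), and astrocyte (5 of 10) markers were called lower in MAL-BG versus CON. Oligodendrocyte (3 of 10) and endothelium and mural cell (2 of 10) markers went the other way and were called higher, with 0 called lower. Of all genes tested, 21.7% were called lower and 11.4% higher in that comparison. The summed level of 10 early response genes, such as *Fos* and *Egr1*, which cell dissociation is known to induce, was highest in CON replicate 1 (39600 CPM) and MAL replicate 4 (46000 CPM) and 9710 to 26400 CPM in MAL-BG. Within MAL-BG, the first principal axis of the other 14555 genes held 40.5% of the variance, with replicates 1, 5, and 6 on one side (scores 9.52, 34.6, and 59.5) and replicates 2, 3, 4, and 7 on the other (-11.9, -64.7, -24.4, and -2.64). Of 9 neutrophil markers, 8 were called higher in MAL-BG versus CON and versus MAL, and their summed level was 481 to 1220 CPM in CON, 519 to 1090 CPM in MAL, and 586 to 3310 CPM in MAL-BG other than replicate 5, which was at 13500 CPM. In these bulk libraries, fewer cells of a type and less RNA per cell cannot be told apart.

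Per kilobase of transcript, which allows genes to be compared, *Atf4* had the highest level of the members, with a mean over the 16 libraries of 182 CPM per kilobase (137 to 288). *Ddit3* (51.4, 26.1 to 107) and *Phgdh* (34.8, 26.3 to 48.3) came next and their ranges overlapped, followed by *Shmt2* (14.2) and *Psat1* (12.7), which also overlapped. The other members were low: *Sesn2* at 2.8, *Asns* at 2.11, *Trib3* at 1.19, *Slc7a11* at 0.987, and *Chac1* at 0.349 CPM per kilobase. The order of *Ddit3* and *Phgdh* differed between groups. In CON, *Ddit3* (61.1 ± 22.4 CPM per kilobase, SD, n = 4) lay above *Phgdh* (29.3 ± 3.67), and in MAL-BG the mean of *Phgdh* (42.3 ± 5.26, SD, n = 7) was above that of *Ddit3* (34.9 ± 4.62).

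**Figure D1:**
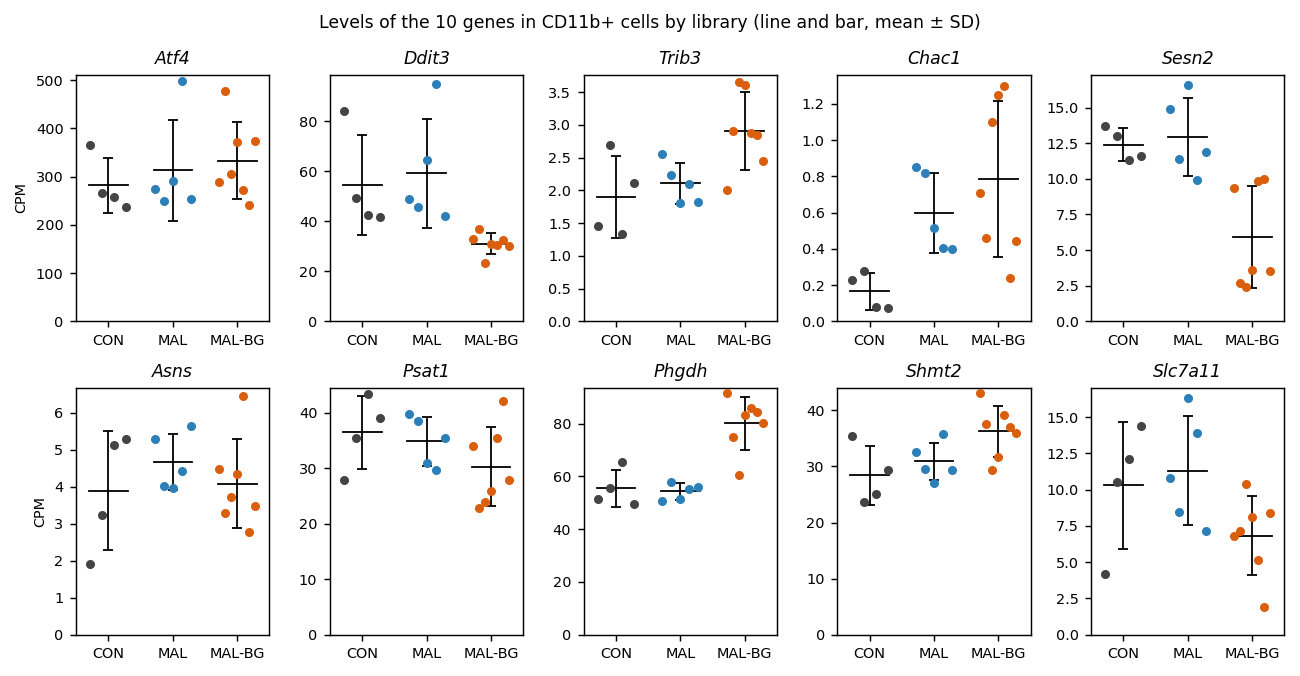
Level of each of the 10 genes in CPM (vertical axis, from 0) in every library of CON, MAL, and MAL-BG (horizontal axis), with 1 point a library in order of replicate number and the mean ± SD of the group as a line and bar. The 7 MAL-BG libraries lie below all CON and MAL libraries for *Ddit3* (23.2 to 36.9 CPM), split into a lower and a higher set for *Sesn2*, and lie mostly above the others for *Phgdh*.

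With all 3 groups fitted together by the quasi-likelihood test of edgeR, a gene was called when its adjusted p was under 0.05 and its absolute log2 fold change above 0.58. All 10 members passed the filter on low counts and were among the 14565 genes tested. In MAL-BG versus CON, 1 member was called higher (*Chac1*) and 2 were called lower (*Ddit3* and *Sesn2*), where 11.4% of all genes tested were called higher and 21.7% lower. The median log2 fold change of the 10 members was 0.16, beside -0.04 over all genes, with 6 members above 0 and 4 below. In MAL-BG versus MAL, *Ddit3* and *Sesn2* were called lower and no member was called higher (background 20.2% lower and 10.2% higher), and the median was -0.05 beside -0.03. In MAL versus CON, no member was called, as was no gene in either direction (0% of genes). *Chac1* passed the filter through 4 MAL-BG libraries and 1 MAL library, so its place among the genes tested depends on the groups in which it was high. These counts depend on scaling, since setting the mean log2 CPM of all libraries equal moved the median of all genes from -0.04 to 0.21 and the share of calls that lay above 0 versus CON from 34.4% to 57.8% (from 33.4% to 58.3% against MAL). Both MAL-BG comparisons share the MAL-BG libraries.

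**Figure D2:**
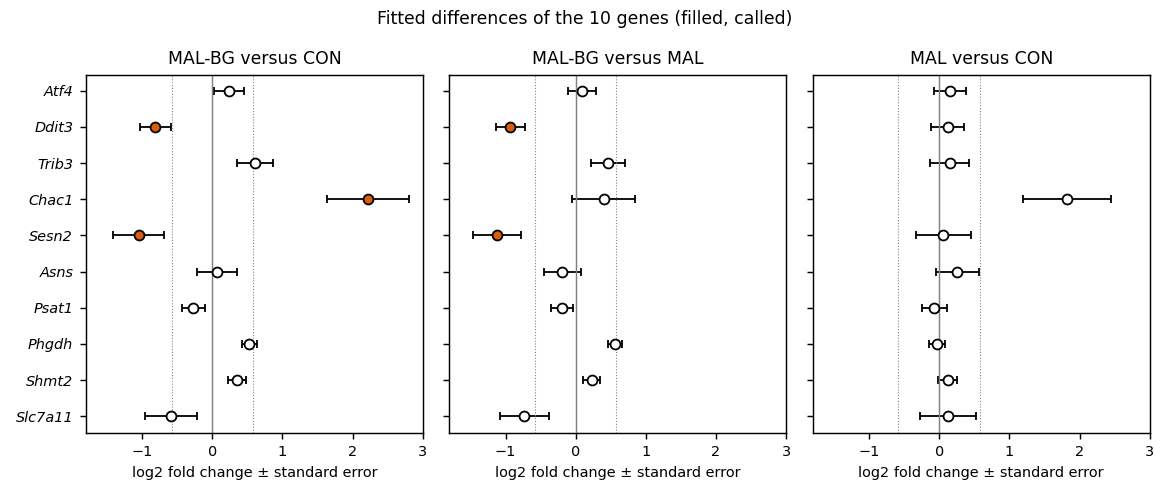
Fitted log2 fold change with its standard error (horizontal axis) for each member (vertical axis) in the 3 comparisons. Filled points passed both thresholds, and dotted lines mark an absolute log2 fold change of 0.58. *Ddit3* and *Sesn2* are filled on the lower side in both MAL-BG comparisons, *Chac1* on the higher side in MAL-BG versus CON, and no point is filled in MAL versus CON.

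*Atf4*, the factor at the head of the response (chromosome 15, 80255184 to 80257545), was at 365, 267, 258, and 237 CPM in CON replicates 1 to 4. In MAL it was at 275, 250, 291, 497, and 253 CPM in replicates 1 to 5. In MAL-BG its lowest, median, and highest levels were 242, 306, and 478 CPM. The groups overlapped, and the highest library of MAL (replicate 4) and of CON (replicate 1) were the same 2 that had the highest early response sums. *Atf4* mRNA was not called in any comparison: the log2 fold change was 0.24 ± 0.211 (SE) in MAL-BG versus CON (edgeR, adjusted p = 0.366), 0.09 ± 0.196 in MAL-BG versus MAL (adjusted p = 0.731), and 0.15 ± 0.225 in MAL versus CON (adjusted p = 0.999). Without CON replicate 1 and MAL replicate 4 together, the value was 0.47 versus CON (adjusted p = 0.028) and 0.37 versus MAL (adjusted p = 0.0497), both below the fold threshold. These 2 libraries had the highest *Atf4* of their groups and were chosen after seeing the data. Leaving them out raises the fold change by construction, so these values do not test for a rise. Since ATF4 is set largely by translation, its mRNA level does not give the amount of the protein, which was not measured.

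*Ddit3* encodes CHOP, a transcription factor that ATF4 induces and that promotes cell death under lasting stress (chromosome 10, 127290793 to 127296291). It was at 83.9, 49.3, 42.6, and 41.9 CPM in CON and at 48.7, 45.8, 64.5, 95, and 42.2 CPM in MAL, in order of replicate. In MAL-BG its lowest, median, and highest levels were 23.2, 31, and 36.9 CPM, so that every MAL-BG library was below every CON and MAL library, while CON and MAL overlapped. All libraries of MAL-BG were below all of CON for 11.1% of genes tested, and below all of MAL for 8.95%. *Ddit3* fell by 0.81 ± 0.219 on the log2 scale in MAL-BG versus CON (edgeR, adjusted p = 0.00687) and by 0.93 ± 0.207 versus MAL (adjusted p = 0.00195). The difference was smaller without the libraries with the highest early response sums. These also had the highest *Ddit3* of their groups, so leaving them out makes the difference smaller by construction. Without CON replicate 1 the log2 fold change versus CON was -0.52 (adjusted p = 0.0447), below the fold threshold, and without both CON replicate 1 and MAL replicate 4 it was -0.44 versus CON (adjusted p = 0.0194) and -0.64 versus MAL (adjusted p = 0.00107), the first of these likewise below it. With equal mean log2 CPM it was -0.58 versus CON (adjusted p = 0.0647). All 10 early response genes had a log2 fold change below 0 versus CON, 5 of them called, and their part in the result was not tested. The 3′ end of *Ddit3* overlaps *Mars* on the opposite strand, and the strand setting used in counting is not given in the sources used here. *Mars* itself had a log2 fold change of 0 in MAL-BG versus CON (adjusted p = 0.995).

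**Figure D3:**
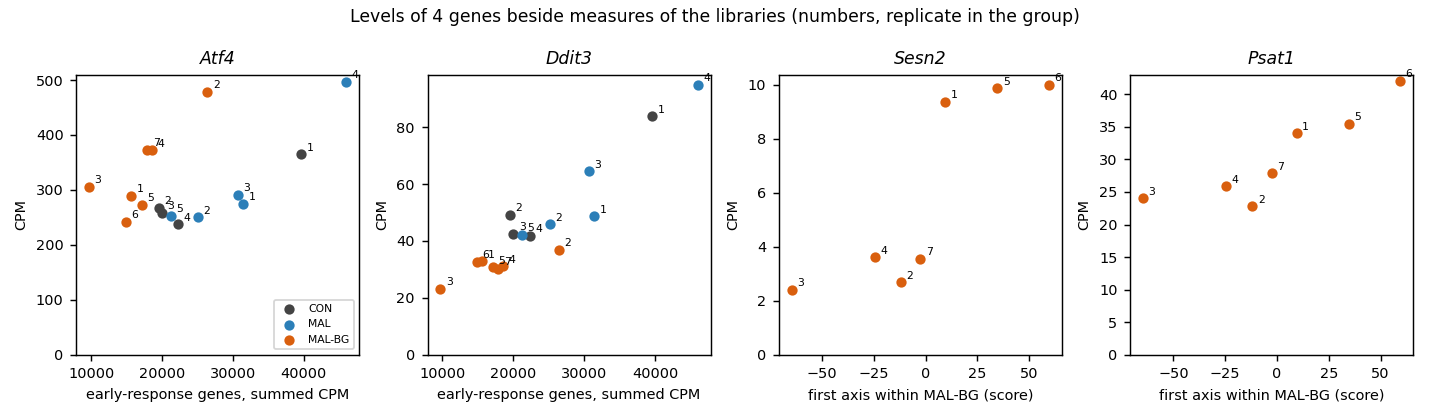
Level of *Atf4* and *Ddit3* (vertical axis, CPM) against the summed CPM of 10 early response genes (horizontal axis) in all 16 libraries, and of *Sesn2* and *Psat1* against the score of each MAL-BG library on the first principal axis of the other genes, with the replicate number beside each point. CON replicate 1 and MAL replicate 4 lie at the far right with the highest *Ddit3* (83.9 and 95 CPM), and MAL-BG replicates 1, 5, and 6 lie to the right with the highest *Sesn2* and *Psat1*.

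*Trib3*, *Chac1*, and *Sesn2* are members that feed back on the response or on growth. *Trib3* encodes a pseudokinase that binds ATF4 and limits its activity (chromosome 2, 152337425 to 152344060). It was at 1.46, 2.69, 1.34, and 2.12 CPM in CON, at 2.55, 2.24, 1.81, 2.1, and 1.83 CPM in MAL, and at 2 to 3.65 CPM with a median of 2.87 in MAL-BG. MAL-BG overlapped with both other groups. The log2 fold change of *Trib3* was 0.61 ± 0.261 in MAL-BG versus CON (edgeR, adjusted p = 0.0648), 0.46 ± 0.24 versus MAL (adjusted p = 0.125), and 0.15 ± 0.278 in MAL versus CON (adjusted p = 0.999). With equal mean log2 CPM it passed in both MAL-BG comparisons, at 0.87 (adjusted p = 0.0123) and 0.68 (adjusted p = 0.0288), and it passed versus CON without CON replicate 2 (0.82, adjusted p = 0.033), MAL-BG replicate 1 (0.74, adjusted p = 0.0339), or MAL-BG replicate 7 (0.72, adjusted p = 0.0454).

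*Chac1* encodes an enzyme that breaks down glutathione (chromosome 2, 119351242 to 119354326) and had the lowest level of the members, so its values rest on few reads. It had 3, 3, 1, and 1 counts in the CON libraries, 10, 11, 6, 5, and 5 in the MAL libraries, and 4 to 24 in the MAL-BG libraries. In CPM this was 0.0757 to 0.278 in CON, 0.398 to 0.851 in MAL, and 0.238 to 1.3 in MAL-BG. All 5 MAL libraries were above all 4 CON libraries, which held for 0.412% of genes tested (and the reverse for 0.302%), and 1 MAL-BG library (replicate 6) overlapped with CON. *Chac1* rose by 2.22 ± 0.584 on the log2 scale in MAL-BG versus CON (edgeR, adjusted p = 0.00578). In MAL versus CON the log2 fold change was 1.82 ± 0.621, which did not pass after adjustment over all genes (edgeR, adjusted p = 0.999), and in MAL-BG versus MAL it was 0.4 ± 0.45 (adjusted p = 0.491). Over the pooled counts, 88 in MAL-BG, 37 in MAL, and 8 in CON, the ratio was 5 for MAL-BG to CON (95% exact interval 2.43 to 11.9), 3.72 for MAL to CON (1.71 to 9.26), and 1.34 for MAL-BG to MAL (0.905 to 2.03). These intervals cover counting error only. In MAL versus CON, 212 of the 14565 genes tested, *Chac1* among them, had an unadjusted p under 0.05 by edgeR, and DESeq2 likewise called 0 genes. That number is below the share of 0.05 that chance alone would give. It was 1086 without CON replicate 1. The lack of calls therefore does not show that the diet had no effect. *Chac1* was not tested under a filter of 1 CPM or after thinning to a common total, since its counts were then too low.

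*Sesn2* encodes sestrin 2, a leucine sensor that holds back the growth kinase mTORC1 (chromosome 4, 132492804 to 132510456). It was at 13.7, 13, 11.3, and 11.6 CPM in CON and at 14.9, 11.4, 16.6, 9.91, and 11.9 CPM in MAL. In MAL-BG it was at 9.37, 9.87, and 10 CPM in replicates 1, 5, and 6, and at 2.68, 2.41, 3.61, and 3.56 CPM in replicates 2, 3, 4, and 7. All MAL-BG libraries were below all CON libraries, which held for 11.1% of genes tested. However, 3 of 7 were close to the lowest libraries of the other groups, and replicate 6 was above MAL replicate 4. *Sesn2* fell by 1.05 ± 0.359 in MAL-BG versus CON (edgeR, adjusted p = 0.0249) and by 1.12 ± 0.339 versus MAL (adjusted p = 0.0138). Its 2 levels within MAL-BG fell on the same sides as the first principal axis of the other genes. The call versus CON was lost without CON replicate 2 (-1.03, adjusted p = 0.0558) or MAL-BG replicate 2, 4, or 7 (-0.86 to -0.89, adjusted p = 0.0632, 0.0694, and 0.0695), with CON and MAL-BG fitted alone (-1.05, adjusted p = 0.0571), with equal mean log2 CPM (-0.8, adjusted p = 0.0784), and without CON replicate 1 and MAL replicate 4 together (-0.91, adjusted p = 0.0812). With equal mean log2 CPM and offsets for transcript length and GC together it was lost versus CON (-0.66, adjusted p = 0.153) and versus MAL (-0.78, adjusted p = 0.0745). An annotated gene, *Gm12981*, lies within *Sesn2*.

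Of the 4 genes of amino acid synthesis, none was called. *Asns*, asparagine synthetase (chromosome 6, 7675165 to 7693209), was at 1.92, 3.25, 5.12, and 5.3 CPM in CON, at 5.28, 4.03, 3.96, 4.43, and 5.65 CPM in MAL, and at 2.79 to 6.45 CPM with a median of 3.72 in MAL-BG. Its groups overlapped, and its log2 fold change was 0.07 ± 0.284 in MAL-BG versus CON (edgeR, adjusted p = 0.86), -0.19 ± 0.263 versus MAL (adjusted p = 0.576), and 0.26 ± 0.305 in MAL versus CON (adjusted p = 0.999). CON replicate 1 was the lowest of all libraries, and without it the sign in MAL-BG versus CON turned (-0.16).

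*Phgdh* (chromosome 3, 98313171 to 98339969) encodes the enzyme that takes the first step of serine synthesis from glucose. It was at 51.4, 55.5, 65.3, and 49.7 CPM in CON, at 50.6, 58, 51.6, 55.4, and 55.8 CPM in MAL, and at 60.7, 83.1, and 91.4 CPM (lowest, median, and highest) in MAL-BG. Every MAL-BG library was above every MAL library, which held for 7.86% of genes tested (9.83% versus CON), and MAL-BG replicate 3 alone overlapped with CON. The log2 fold change was 0.53 ± 0.112 in MAL-BG versus CON (edgeR, adjusted p = 0.0013) and 0.56 ± 0.104 versus MAL (adjusted p = 5.39e-04), which is below the fold threshold in both, and -0.03 ± 0.117 in MAL versus CON (adjusted p = 0.999). By adjusted p alone, *Phgdh*, *Shmt2*, and *Chac1* lay above CON, as did 19.8% of genes, and *Phgdh* lay above MAL, as did 20.2%. *Phgdh* came over the fold threshold versus CON without CON replicate 3 (0.62), or MAL-BG replicate 2 (0.61), 3 (0.59), or 7 (0.6), and versus MAL under DESeq2 (0.59) or without MAL replicate 2 (0.59) or MAL-BG replicate 2 (0.63), 3 (0.62), 4 (0.6), or 7 (0.62). With equal mean log2 CPM it was called in both, at 0.78 and 0.79. In the brain *Phgdh* is known chiefly from astrocytes, and all 10 astrocyte markers had a log2 fold change below 0 in MAL-BG versus CON, 5 of them called. Which cells the *Phgdh* reads came from was not tested.

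*Psat1*, which takes the next step of serine synthesis (chromosome 19, 15905123 to 15925059), was at 27.9, 35.5, 43.5, and 39.1 CPM in CON and at 39.8, 38.5, 31, 29.8, and 35.4 CPM in MAL. In MAL-BG it was at 34, 35.5, and 42.1 CPM in replicates 1, 5, and 6 and at 22.8, 24, 25.9, and 27.9 CPM in replicates 2, 3, 4, and 7, with the same 3 libraries higher as for *Sesn2*. Its log2 fold change was -0.27 ± 0.168 in MAL-BG versus CON (edgeR, adjusted p = 0.206) and -0.2 ± 0.157 versus MAL (adjusted p = 0.309). *Psat1* thus had the opposite sign from *Phgdh* in both comparisons, though the difference between the 2 genes was not tested. In MAL versus CON it was -0.07 ± 0.181 (adjusted p = 0.999).

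*Shmt2* encodes the mitochondrial enzyme that moves a carbon from serine to folate (chromosome 10, 127517123 to 127522444). It was at 35.5, 23.7, 25.1, and 29.3 CPM in CON, at 32.6, 29.5, 27.1, 35.8, and 29.4 CPM in MAL, and at 29.3, 37.1, and 43 CPM (lowest, median, and highest) in MAL-BG. The groups overlapped. The log2 fold change of 0.35 ± 0.132 in MAL-BG versus CON (edgeR, adjusted p = 0.0399) was below the fold threshold, and without CON replicate 2 it was 0.27 (adjusted p = 0.142). Those versus MAL (0.23 ± 0.122, adjusted p = 0.135) and in MAL versus CON (0.12 ± 0.14, adjusted p = 0.999) did not pass. With equal mean log2 CPM it was called versus CON, at 0.59 (adjusted p = 0.00735).

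*Slc7a11* encodes the cystine importer of the xc- system, which exchanges cystine for glutamate (chromosome 3, 50364936 to 50499087). It was at 4.22, 10.5, 12.1, and 14.4 CPM in CON, at 10.8, 8.43, 16.3, 13.9, and 7.17 CPM in MAL, and at 1.9, 7.13, and 10.4 CPM (lowest, median, and highest) in MAL-BG. The groups overlapped, with the lowest CON library again replicate 1. The log2 fold change was -0.59 ± 0.369 in MAL-BG versus CON (edgeR, adjusted p = 0.2), -0.73 ± 0.346 versus MAL (adjusted p = 0.0961), and 0.13 ± 0.399 in MAL versus CON (adjusted p = 0.999). The value versus CON was -0.34 with equal mean log2 CPM and 0.06 with offsets for length and GC besides.

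The levels of few members followed those of *Atf4* from library to library. After the mean of each group was removed, Pearson's r of log2 CPM with *Atf4* over the 16 libraries was 0.74 for *Ddit3* (Spearman's rho 0.59) and 0.57 for *Ddit3* without the 2 libraries farthest from the median of *Atf4*, MAL replicate 4 and MAL-BG replicate 2. It was -0.78 for *Psat1* (rho -0.8) and -0.53 for *Sesn2* (rho -0.51). For *Trib3* (-0.05), *Chac1* (-0.04), *Phgdh* (-0.17), *Shmt2* (0.3), *Slc7a11* (0.25), and *Asns* (-0.38) it was weaker. The 5 genes most like *Atf4* by this measure were *Pih1d1* (0.96), *Tomm34*, *6330418K02Rik*, *Erp29*, and *Ddx39b* (0.95 each), none of them on the lists of the response. All these values come from the same libraries and share their depth and scaling, and they describe likeness only.

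Beside the members, 75 other genes of the response were present in the table and 73 were tested, in 9 lists. In MAL-BG versus CON, 9 were called higher and 17 lower, and the median log2 fold change was 0.02, beside -0.04 over all genes, of which 11.4% were called higher and 21.7% lower. In MAL-BG versus MAL, 7 were called higher and 14 lower (median -0.03), where 10.2% of all genes were called higher and 20.2% lower, and in MAL versus CON 0 were called. The same shares over all genes apply to the counts of each list below, several of which hold few genes. In each list the called gene with the smallest p versus CON was named by rule, and the further genes named from a list were chosen after their values were seen.

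**Figure D4:**
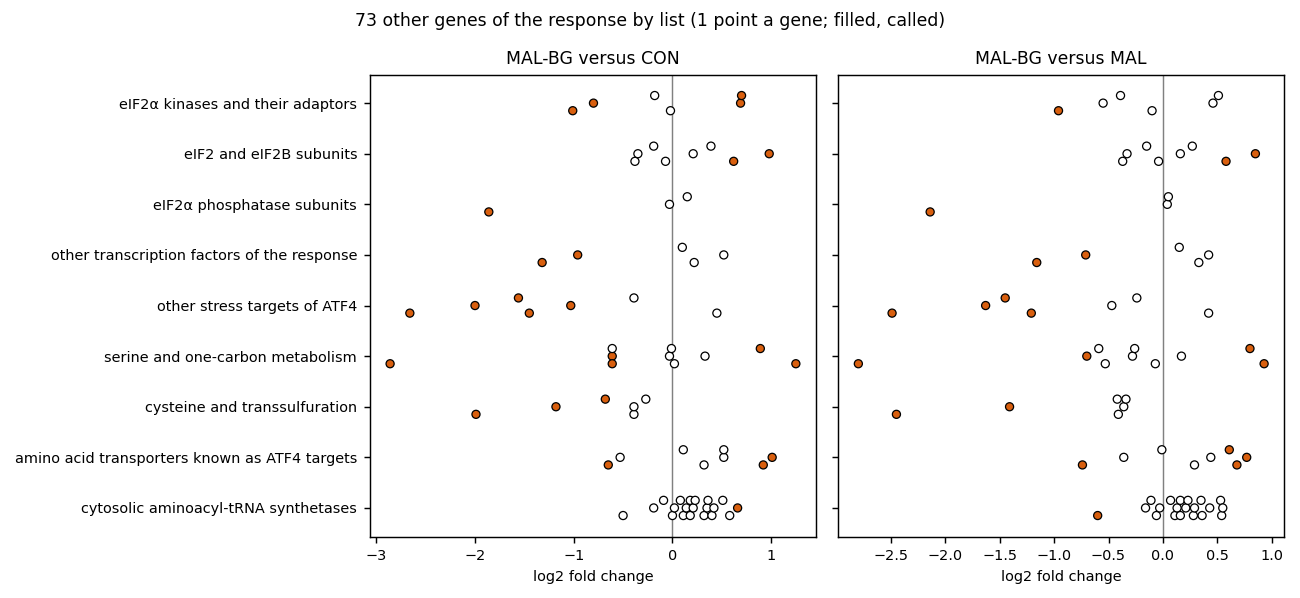
Log2 fold change (horizontal axis) of 73 other genes of the response by list (vertical axis) in MAL-BG against CON (left) and against MAL (right), with 1 point a gene and called genes filled. The filled points of the other stress targets of ATF4 and of cysteine and transsulfuration genes all lie below 0, and most tRNA synthetases lie just above 0.

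Of 6 eIF2α kinases and adaptors, 2 were called higher and 2 lower in MAL-BG versus CON, and 0 higher and 1 lower versus MAL. *Eif2ak3*, the kinase PERK of the endoplasmic reticulum, was at 45.8, 30, 38.1, and 31.7 CPM in CON, 35.4 to 44.4 CPM in MAL, and 54.1 to 70.6 CPM in MAL-BG, with no overlap between MAL-BG and the others. All MAL-BG libraries lay above all of CON for 9.83% of genes tested, and above all of MAL for 7.86%. *Eif2ak3* was thus 1 of many such genes. It rose by 0.69 ± 0.122 on the log2 scale versus CON (edgeR, adjusted p = 3.88e-04). *Eif2ak2*, the kinase PKR that senses double-stranded RNA, also rose (0.7, adjusted p = 0.0223), and *Eif2ak4*, which encodes the amino acid sensor GCN2, had a log2 fold change of -0.18 (adjusted p = 0.266). *Gcn1l1*, a GCN2 activator, fell by 1.01 (adjusted p = 0.00125) and *Impact*, a GCN2 inhibitor, fell by 0.8 (adjusted p = 4.06e-04), of which *Impact* was not called with equal mean log2 CPM (-0.56), and neither was with offsets for length and GC besides. Versus MAL, *Gcn1l1* was called (-0.96, adjusted p = 0.00126), and *Eif2ak2* was not (0.46, adjusted p = 0.0881). *Eif2ak3* (0.51, adjusted p = 0.0019) and *Impact* (-0.55, adjusted p = 0.00401) missed the fold threshold alone. Of 8 subunits of eIF2 and its exchange factor eIF2B, 2 were called higher. *Eif2b4* was at 29.5 to 41.2 CPM in CON, 32.9 to 48.1 CPM in MAL, and 47.4 to 94.5 CPM in MAL-BG, and rose by 0.98 ± 0.18 versus CON (edgeR, adjusted p = 4.86e-04).

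Of 3 subunits of the eIF2α phosphatases, 1 was called lower. *Ppp1r15a*, the GADD34 subunit that guides a phosphatase to eIF2α, was at 638, 347, 326, and 399 CPM in CON, at 482, 405, 545, 813, and 356 CPM in MAL, and at 61.4 to 209 CPM in MAL-BG. It fell by 1.86 ± 0.29 versus CON (edgeR, adjusted p = 1.50e-04), with no overlap, and was again highest in CON replicate 1 and MAL replicate 4. All MAL-BG libraries lay below all of CON for 11.1% of genes tested. The other 2 phosphatase subunits, *Ppp1r15b* (0.15) and *Ppp1cc* (-0.03), did not pass. Of 5 other transcription factors, *Atf3* (fell by 1.32 ± 0.285, adjusted p = 0.00159) and *Cebpb* (fell by 0.96, adjusted p = 0.00272) were called lower. *Atf3* was at 1680 to 2870 CPM in CON, 1350 to 2740 CPM in MAL, and 329 to 1490 CPM in MAL-BG. Without CON replicate 1 and MAL replicate 4, *Ppp1r15a* was at -1.53 (adjusted p = 2.48e-04) and *Atf3* at -1.03 (adjusted p = 0.00621), and both were still called. With equal mean log2 CPM *Cebpb* was called (-0.74), and with offsets for length and GC besides it was not (-0.54, adjusted p = 0.123).

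Of 7 other stress targets tested, 5 were called lower, with a list median of -1.45, where 21.7% of all genes tested were called lower. *Cdkn1a*, the cell cycle inhibitor p21, was at 136 to 215 CPM in CON, 112 to 154 CPM in MAL, and 34.2 to 53 CPM in MAL-BG, and fell by 2 ± 0.135 versus CON (edgeR, adjusted p = 1.85e-07). *Ddit4*, which restrains mTORC1 (fell by 1.03, adjusted p = 0.00156), *Gdf15*, a stress cytokine (fell by 1.56, adjusted p = 0.00112), *Sesn3*, a sestrin (fell by 1.45, adjusted p = 2.69e-04), and *Vldlr*, a lipoprotein receptor (fell by 2.66, adjusted p = 2.91e-04), were the others. Versus MAL, 4 of these 5 were called lower, and *Gdf15* was not (-0.47, adjusted p = 0.23), with a log2 fold change of -1.1 in MAL versus CON (adjusted p = 0.999). *Eif4ebp1*, an inhibitor of cap-dependent translation, had a log2 fold change of 0.45 (adjusted p = 0.0291), below the fold threshold. All 5 lower calls of this list were also made under each of the other 4 scalings. Markers of choroid plexus, neurons, ependyma, and astrocytes were also lower in MAL-BG, and the part of such cells in these differences was not tested.

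Among 10 genes of serine and one-carbon metabolism, 2 were called higher and 3 lower (*Gldc*, *Mthfd1*, and *Aldh1l2*, of which *Gldc* alone was called with equal mean log2 CPM). The mitochondrial folate enzymes *Mthfd2* (rose by 1.25, adjusted p = 4.24e-04) and *Mthfd1l* (rose by 0.89, adjusted p = 4.65e-04) were the higher ones. *Gldc*, of the glycine cleavage system, was at 8.52 to 21.8 CPM in CON, 5.64 to 20.7 CPM in MAL, and 0.594 to 4.48 CPM in MAL-BG, and fell by 2.86 ± 0.449 versus CON (edgeR, adjusted p = 1.63e-04). *Gldc* is known from astrocytes, whose markers were also lower in MAL-BG, and the part of astrocytes in this difference was not tested. *Psph*, the last enzyme of serine synthesis, had a log2 fold change of 0.02 (adjusted p = 0.919). Of 6 genes of cysteine metabolism and transamination, all were below 0 and 3 were called lower. *Got1*, an aspartate aminotransferase, was at 53 to 73.7 CPM in CON, 31.9 to 57.4 CPM in MAL, and 31.4 to 45.3 CPM in MAL-BG, and fell by 0.68 ± 0.144 versus CON (edgeR, adjusted p = 0.0013), a call lost with equal mean log2 CPM (-0.43) and not made versus MAL (-0.34, adjusted p = 0.0549). The transsulfuration enzymes *Cbs* (fell by 1.18, adjusted p = 0.00297) and *Cth* (fell by 1.99, adjusted p = 0.00399) were the others. The mean level of *Cth* was only 0.411 ± 0.291 CPM (SD) in MAL-BG, 1.67 ± 0.795 in CON, and 2.29 ± 0.947 in MAL. Its values thus rest on few reads. Which cells the *Cbs* and *Cth* reads came from was not tested.

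Of 8 amino acid transporters, 2 were called higher and 1 lower versus CON, and 3 higher and 1 lower versus MAL. *Slc7a5*, the light chain of the LAT1 importer of large neutral amino acids, was at 94.2, 80.6, 101, and 112 CPM in CON, at 137, 107, 140, 90.2, and 101 CPM in MAL, and at 161, 174, and 218 CPM (lowest, median, and highest) in MAL-BG. MAL-BG did not overlap with the other groups, and *Slc7a5* rose by 0.92 ± 0.141 versus CON (edgeR, adjusted p = 1.31e-04). Such separation on the higher side held for 9.83% of genes tested versus CON and 7.86% versus MAL. *Slc3a2*, the heavy chain that LAT1 shares with the cystine importer, had a log2 fold change of 0.52 versus CON (adjusted p = 0.00533), below the fold threshold, and rose by 0.61 versus MAL (adjusted p = 0.00119). *Slc1a4*, a carrier of alanine, serine, and cysteine, rose by 1.01 (adjusted p = 0.00324), and *Slc38a2*, the SNAT2 carrier that amino acid starvation is known to induce, fell by 0.65 (adjusted p = 0.0125), the latter not called with equal mean log2 CPM (-0.39) or versus MAL (-0.36, adjusted p = 0.115). The log2 fold change of *Slc1a5* was -0.53 versus CON (edgeR, adjusted p = 0.00358), below the fold threshold. Versus MAL it was -0.74 (adjusted p = 2.14e-04), the lower call of that comparison. Of 20 cytosolic aminoacyl-tRNA synthetases, 16 were above 0, 8 of them with an adjusted p under 0.05, and 1 was called (6 with equal mean log2 CPM). By adjusted p alone, 19.8% of all genes tested lay above CON, and 11.4% were called higher. *Tars*, for threonine, was at 43.2 to 53.7 CPM in CON, 42.8 to 62.9 CPM in MAL, and 61.7 to 81.2 CPM in MAL-BG, and rose by 0.66 ± 0.117 versus CON (edgeR, adjusted p = 4.12e-04). *Iars*, for isoleucine, had a log2 fold change of -0.5 versus CON (adjusted p = 0.0242), below the fold threshold, and was the 1 synthetase called versus MAL (fell by 0.6, adjusted p = 0.00644). *Tars* was at 0.53 versus MAL (adjusted p = 0.00116), below the fold threshold.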

How the data were processed

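RNA-Seq was analysed for 16 libraries of CD11b+ cells (CON, n = 4; MAL, n = 5; MAL-BG, n = 7). The authors aligned reads of stranded poly(A) libraries with STAR (mm10/GRCm38 per the labels), counted them with HTSeq (2.5 per the labels), and deposited raw counts per gene. The methods of the paper give a different version of HTSeq. The strand setting, the handling of multi-mapping reads, and the annotation are not given in the sources used here. Groups were read from column names. The authors' own model held a batch term, but nothing ties a column to a sample title or batch, so none was fitted, batch effects in these values were not tested, and p values measure the spread between these libraries.

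A gene was tested if over 10 counts were present in 4 or more libraries (14565 of 24421). Library sizes were scaled by TMM and all groups fitted together in edgeR 4.0.16 (R 4.3.3), with Benjamini-Hochberg adjustment over all genes tested. A call needed an adjusted p below 0.05 with a log2 fold change beyond 0.58 in size. CPM used TMM-scaled library sizes, with a prior count of 2 for log2 CPM. Transcript lengths came from GENCODE and promoters from RefSeq (GRCm38.p6). Replicates differed by more than counting noise (lowest chi-square per degree of freedom 9.86 over 37 pairs). The edgeR fit was tested on simulated counts with as many planted rises as falls, which cannot show how scaling behaves when changes are mostly in one direction. The other steps were not tested in this way. The members and lists were chosen with earlier results of these data known. Genes named by rule were all members, the called gene of smallest p versus CON in each list, and the 5 genes most correlated with *Atf4*, and further genes of the lists were chosen after their values were seen. Alternatives were other scalings, filters, and thresholds, DESeq2 1.42.0, length and GC offsets (on top of equal mean log2 CPM), fits of 2 groups, thinning, and each library left out.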

Additional observations from a re-analysis of the deposited data

Results flagged for a closer look

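*Atf4* in MAL replicate 4 stood at 497 CPM, far above the other 4 MAL libraries (250 to 291 CPM). Its gap to the next library was 0.834 of the range of the group. Of 30 groups of values tested in this way (10 genes in 3 groups), it was the only 1 past the limit, and chance alone flags about 1 in 20. The same library had the highest sum of early response genes (46000 CPM) and the highest *Ddit3* (95 CPM). Without MAL replicate 4, the log2 fold change of *Atf4* in MAL versus CON was -0.08 in place of 0.15, and neither passed the test. The part of the early response in this value was not tested.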

How the results depend on the processing

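The log2 fold changes of *Ddit3* and *Sesn2* were below 0 in both MAL-BG comparisons, and those of *Chac1* and *Phgdh* above 0, under every alternative in which they were tested. The counts of members called moved with the setting. The offsets for length and GC were always fitted on top of equal mean log2 CPM. In MAL-BG versus CON, the 1 member called higher and 2 called lower became 4 and 0 with equal mean log2 CPM (median of the members 0.4), 3 and 1 when length and GC offsets were added, and 2 higher with DESeq2 (*Trib3* added). The members called higher were 3 without a fold threshold, and 0 with the 1 CPM filter or after thinning, where *Chac1* was not tested. The members called lower were 1 with CON and MAL-BG fitted alone, and 0 without CON replicate 1 and MAL replicate 4 together, an alternative chosen after seeing the data. With 1 library left out, 1 to 3 members were called higher and 1 to 2 lower. In MAL-BG versus MAL, the 0 members called higher became 2 with equal mean log2 CPM (median 0.16) and 1, *Phgdh*, with length and GC offsets, DESeq2 size factors, the DESeq2 test, no fold threshold, or without CON replicate 1 and MAL replicate 4, and 0 to 1 with 1 library left out. The members called lower became 1 with the offsets, and the pathway genes called were 35 in place of 21 without a fold threshold. Signs turned only in comparisons in which the member was not called. In MAL-BG versus CON these were *Slc7a11* with offsets (0.06) and *Asns* without CON replicate 1 (-0.16), CON replicate 2 (-0.01), MAL-BG replicate 5 (-0.1), or CON replicate 1 and MAL replicate 4 together (-0.08). In MAL-BG versus MAL they were *Asns* (0.02) and *Psat1* (0.03) with equal mean log2 CPM. In MAL versus CON they were *Phgdh* with offsets (0.05) or without CON replicate 3 (0.06), *Psat1* without CON replicate 3 (0.03), *Slc7a11* without CON replicate 1 (-0.13), MAL replicate 3 (-0.03), or CON replicate 1 and MAL replicate 4 together (-0.19), *Sesn2* without MAL replicate 3 (-0.04), and *Atf4* (-0.08) and *Ddit3* (-0.11) without MAL replicate 4. With 1 library left out, the log2 fold change ranged from -0.16 to 0.25 for *Asns* in MAL-BG versus CON, and in MAL versus CON from -0.08 to 0.3 for *Atf4*, -0.11 to 0.41 for *Ddit3*, -0.04 to 0.15 for *Sesn2*, -0.17 to 0.03 for *Psat1*, -0.08 to 0.06 for *Phgdh*, and -0.13 to 0.34 for *Slc7a11*. Other than where the construction shows it, the cause was not tested. No paired analysis was possible because the running numbers of the columns match no sample title and are only names. Depth limits *Chac1* most, with 1 to 3 counts in each CON library.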

Other observations

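The libraries differed in how levels ran with transcript length. The slope of log2 CPM, relative to the mean of all libraries, on log2 transcript length, fitted together with GC content, was -0.2 to -0.01 in MAL-BG, 0.06 to 0.14 in CON, and -0.01 to 0.16 in MAL. The transcript of *Slc7a11*, the member whose sign versus CON turned with equal mean log2 CPM and offsets for length and GC content together, is 9223 bases long, against 3475 for *Sesn2* and 890 for *Ddit3*. Its GC content is 40.7%, against 58.7% for *Sesn2* and 55.4% for *Ddit3*. Since the offsets were fitted together, the parts of length and GC content cannot be told apart.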
